A study of Mus musculus with 11 samples.

Results

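Astrocyte transcriptomes of the hippocampus (HC) were compared with those of all other sampled brain regions pooled. The members are the 3 HC samples of the 11 in the series, chosen by their tissue label, and the comparison group holds the other 8, namely 3 from the olfactory bulb (OB), 2 from the cortex (CX) and 3 from the brainstem (BS). All samples came from 16-week-old C57BL/6 mice of both sexes that carried the BAC Aldh1l1-eGFP transgene, in which the regulatory sequence of Aldh1l1 drives a green fluorescent protein in astrocytes, and the labels name no other treatment or allele. Regions were dissected and dissociated, fluorescent cells were collected by flow sorting, and total RNA was sequenced after ribosomal RNA depletion. The sort selects whatever cells are green, so RNA of other cells that passed the gate stays in the sample. The labels do not say that samples of a region came from separate animals, and the p-values below then measure only the spread between these samples. Within a region that spread may be technical. In the pooled comparison it also holds the differences among the OB, CX and BS.

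Astrocytes buffer extracellular potassium, take up glutamate, GABA and glycine, supply metabolites to neurons and touch synapses with fine processes. They also keep traces of the transcription factors that patterned the tissue in which they arose, so that astrocytes of the dorsal forebrain, ventral forebrain and hindbrain differ in homeobox genes. The hippocampus belongs to the dorsal forebrain with the cortex, and its dentate gyrus retains radial glia-like neural stem cells in the adult.

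Values are read counts divided by 1 size factor for each sample. Between 5543804 and 14151670 reads lay behind the HC samples and between 2830746 and 9425474 behind the others, and 1 read was worth a value between 0.367 (HC_3) and 2.105 (BS_3). Across genes the HC samples correlated with each other at 0.91 to 0.928 (Pearson's r on the log2 scale, genes are not independent replicates). None of 18 astrocyte markers was called in the HC, where their summed value was 342197 to 577359 against 159145 to 773068 elsewhere. Choroid plexus markers summed to 109789 to 227743 in the HC, to 79944 to 380130 in the BS, and to no more than 9653 in the OB and CX. Rn45s, the ribosomal RNA precursor, was at 1114997 or above in every CX and BS sample and at 143040 or below in every OB and HC sample. In sorted samples, fewer cells of a type and less RNA per cell cannot be told apart.

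Of 13875 genes tested, 139 were lower in the HC than in the pooled other regions and 39 were higher. The call required a limma p below 0.01 before adjustment, more than a 1.5-fold change, and values above 5 in 2 or more samples from a single region. Lower genes were 1.00% of the tested genes, higher genes 0.281% and both together 1.28%. No gene had an adjusted p under 0.05 by limma, where the smallest was 0.069 and 789 genes had an unadjusted p under 0.05. On the recovered reads edgeR gave 0 genes of adjusted p under 0.05 that also met the fold and expression rules, with 860 genes at an unadjusted p under 0.05. DESeq2 gave 89 lower and 4 higher genes that passed that adjusted threshold and met the same rules. The median difference over all tested genes was 0.02 on the log2 scale.

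**Figure D1:**
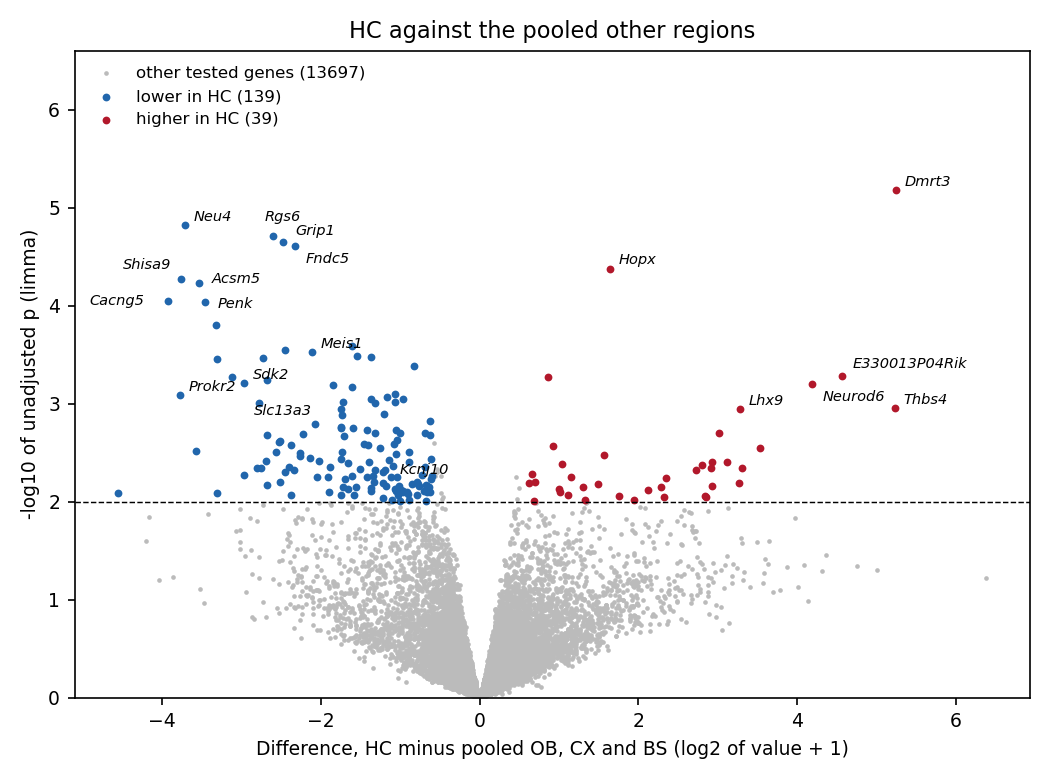
Each point is 1 of 13875 tested genes, with the difference between the HC and the pooled OB, CX and BS on the x axis (log2 of value + 1) and the −log10 of the unadjusted limma p on the y axis, where the dashed line marks the call threshold of 0.01. The 139 lower genes (blue) outnumber the 39 higher genes (red), and Dmrt3 and Neu4 have the smallest p in each direction.

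The excess of lower genes depended on which regions and libraries formed the comparison group. Against the OB and CX alone, without the BS, 426 genes were higher and 316 lower, so the split turned. Against the OB and BS, without the CX, 251 genes were lower and 141 higher, and against the CX and BS, without the OB, 104 were lower and 40 higher. With a separate mean for each region, which takes the differences among OB, CX and BS out of the spread, 321 genes were lower and 345 higher than the average of the other regions. Single libraries also moved the counts. The higher genes numbered 17 without HC_1, 21 without HC_2, 63 without CX_1, 70 without CX_2 and 107 without BS_1, and the lower genes numbered 89 without HC_2. Lower genes outnumbered higher genes in each of the 11 fits that left out 1 library. Where a gene is given as called in some of 23 settings, these are the alternatives that kept the unadjusted threshold, since requiring an adjusted p under 0.05 left no pooled call. A call said to be lost without a library may also have been lost in other settings.

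**Figure D2:**
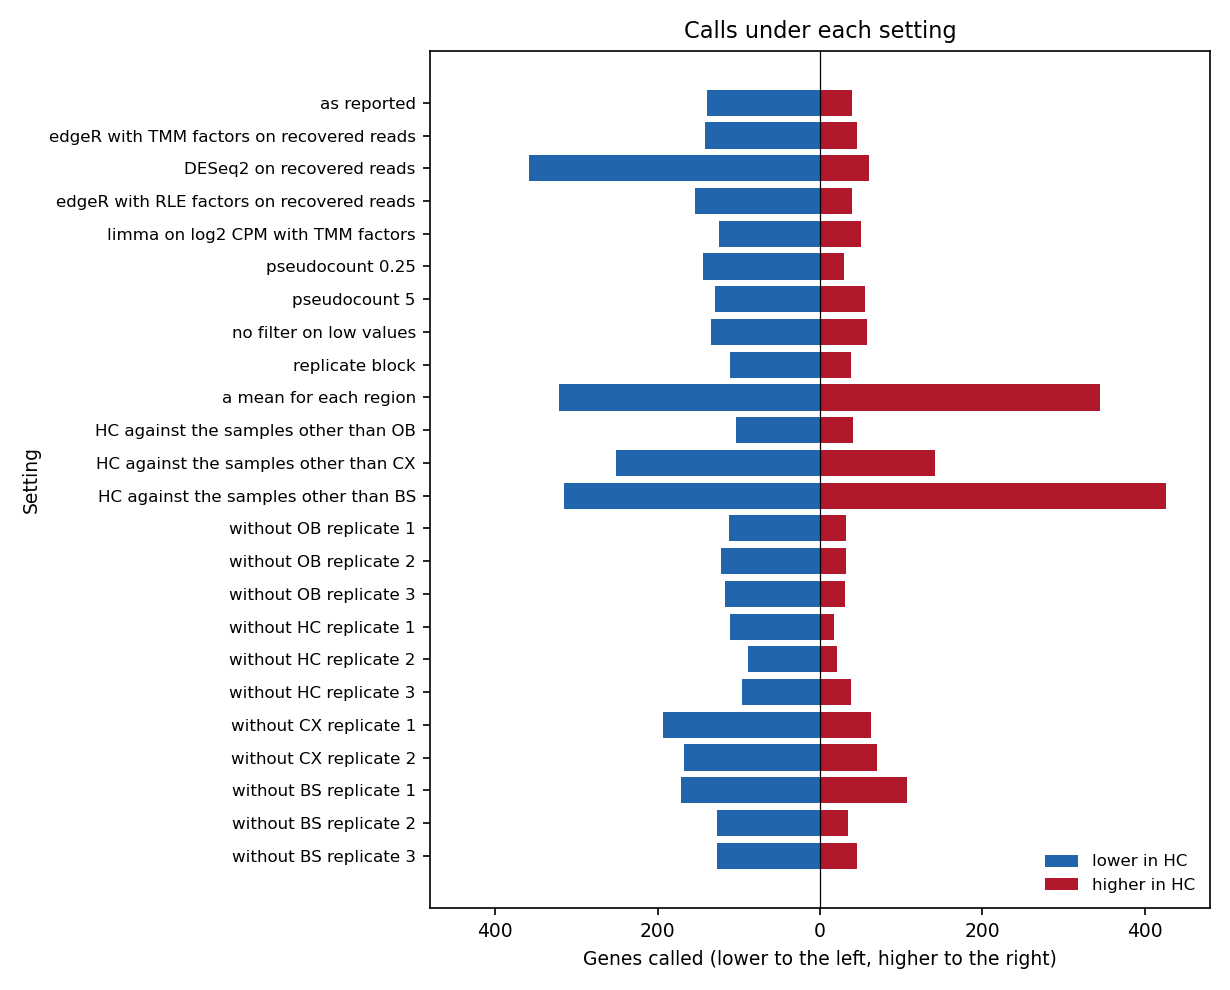
Bars give the number of genes called lower (blue, to the left) and higher (red, to the right) in the HC under the comparison as reported and 23 other settings that kept the unadjusted threshold. The split turns to more higher than lower genes with a mean for each region (345 against 321) and without the BS (426 against 316).

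The lower genes had their highest regional mean in the OB in 78 of 139 cases, in the BS in 42 and in the CX in 19. The region next above the HC was the CX for 78, the BS for 36 and the OB for 25. These counts by region were not made over all tested genes, so they cannot be called particular to the lower genes. The paper reports that the HC and CX were the most alike of its regions. In the median over the lower genes the HC was 1.58 below the OB, 1.03 below the CX and 1.51 below the BS on the log2 scale when each difference is written as a fall, and the corresponding medians over all tested genes lay within 0.01 of 0. The 3 HC samples lay below all 8 others in 81 of the 139 lower genes and above all others in 23 of the 39 higher genes. Over all tested genes 143 (1.03%) had every HC sample below and 70 (0.505%) every HC sample above the rest. The median difference of the lower genes fell by 1.42 on the log2 scale and 43 of them differed by more than 4-fold. Higher genes had a median of 2.29, and 21 of the 39 differed by more than 4-fold.

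A pooled comparison can rest on part of the other regions, so the HC was also compared with each region in a fit with 4 group means. In that fit 26 genes (0.187% of those tested) were lower and 4 (0.0288%) were higher than in each of the OB, CX and BS, with p under 0.01 in all 3 contrasts. The lower genes were Acsm5, Cacng5, Cit, Efna5, Elavl4, Fndc5, Gpd1, Grip1, Hs3st3b1, Kcnh5, Klhl15, Lgr6, Man1c1, Meis1, Mkx, Neu4, Penk, Rgs6, Sdk2, Sgsm1, Shisa9, Slc13a3, Srgap1, Syndig1l, Taf13 and Tmem117. The higher genes were Dmrt3, Hopx, Lhx9 and the long non-coding RNA E330013P04Rik. With adjusted p under 0.05 in each contrast, 10 lower (Cit, Fndc5, Hs3st3b1, Meis1, Neu4, Penk, Rgs6, Shisa9, Slc13a3, Taf13) and 2 higher genes (Dmrt3, Hopx) were left. All 30 were also called in the pooled comparison. Without CX_1 the number apart from each region was 18 and without CX_2 it was 19.

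**Figure D3:**
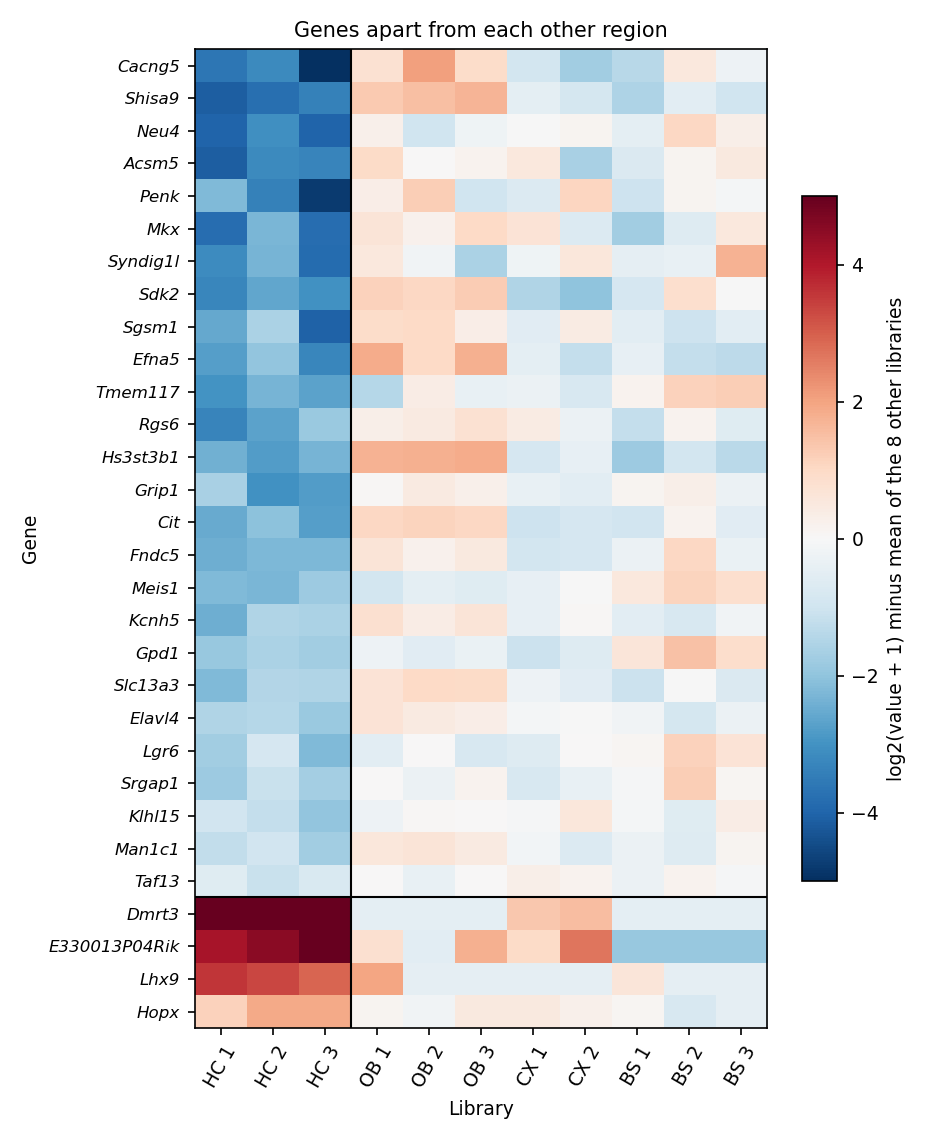
Rows are the 26 lower (top) and 4 higher (bottom) genes that differed from each other region, columns are the 11 libraries, and colour gives log2(value + 1) minus the mean of the 8 libraries from outside the HC. The 3 HC columns are blue in all 26 upper rows and red in the 4 lower rows, while the OB columns are the reddest for Shisa9, Hs3st3b1 and Efna5.

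Genes for AMPA receptor auxiliary subunits and scaffolds formed the list with the largest share of lower genes. These proteins set the trafficking and gating of the glutamate receptors that astrocytes and neurons carry. Of 19 tested, 6 were lower (Cacng4, Cacng5, Grip1, Olfm2, Shisa9, Syndig1l), none was higher and 13 were not called, with a median difference of -0.52 against 0.02 over all tested genes. The count was between 5 and 7 when any 1 library was left out. The list was chosen with earlier results of these samples known, so its count is no independent evidence. Over all tested genes 1.00% were called lower and 0.281% higher, the shares to set beside each list count here and below.

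Shisa9, an AMPA receptor auxiliary subunit (chr16:11983593-12270904 in GRCm38.p6, as for all gene positions here), had values of 98.1, 123 and 161 in the HC samples and of 583 (lowest), 1182 (median) and 5452 (highest) in the 8 others. All HC samples lay far below the next sample, BS_1, and the OB samples, with a mean of 4811 ± 629 (SD, n = 3), stood highest. The difference was -3.76 on the log2 scale (SE 0.64, limma adjusted p = 0.1013, exact permutation p = 0.006061). The exact two-sided permutation test of 3 against 8 values can give no p below 0.006061 (165 assignments). Genes named because they were called or did not overlap lie near that floor through their selection from these same values. For them the exact p is no added evidence, here and below. The difference from the OB alone was -5.25, from the CX alone -3.07 and from the BS alone -2.73. Cacng5, a transmembrane AMPA receptor regulatory protein, had values of 9.99, 13.7 and 3.3 in the HC and of 39.9, 153 and 553 (lowest, median, highest) elsewhere. These groups did not overlap, and the difference was -3.92 (SE 0.71, limma adjusted p = 0.128, exact permutation p = 0.006061). Grip1, a PDZ scaffold that binds AMPA receptor subunits, had values of 13.7, 4.57 and 5.5 in the HC against 30.7, 48.1 and 60.8, where values after "against" are the lowest, median and highest of the 8 others here and for the genes that follow. Its values in the other regions were close together, and the difference was -2.48 (SE 0.39, limma adjusted p = 0.069, exact permutation p = 0.006061).

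The other members of the list were less separate or rested on few reads. Syndig1l, a relative of a synapse differentiation factor, had 3 reads in all HC samples together, and its values of 0.625, 1.83 and 0 lay below the lowest other value of 3.77. Olfm2, a secreted olfactomedin, had 25 reads in the HC and a highest HC value of 11 against a lowest other value of 14. Olfm2 was called in 18 of the 23 other settings, and the losses included the fit without HC_3. Cacng4, another regulatory protein, overlapped the CX, where CX_2 had 16.9 against 22.5 in HC_1, and its call was lost without HC_2. The AMPA receptor subunits themselves gave no call among 4 tested, but 2 of them were called lower without CX_1, without CX_2 and against the OB and BS alone, and 1 against the OB and CX alone. Gria4 had values of 75, 133 and 92.5 in the HC, within the CX range of 58.3 to 211 and below the OB (622 to 759) and BS (1202 to 3093), with a difference of -2.73 and limma adjusted p = 0.7483, exact permutation p = 0.04848.

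Among NMDA, delta and kainate receptor genes 1 of 15 tested was lower, Neto2, an auxiliary subunit of kainate receptors, with values of 76.2, 120 and 132 against a lowest other value of 150. Of 7 metabotropic glutamate receptors tested, only Grm4 was called, and it was lower, with HC values of 5, 0.913 and 1.1 against 6.31, 19.8 and 45. Grm4 was called in all 23 alternative settings, although 12 reads lay behind its HC values, whereas the call of Neto2 was lost without HC_1, HC_2 or BS_2. None of 14 glutamate uptake and glutamine cycle genes tested was called, and their median was 0.04, although 3 were lower against the OB and CX alone. Grin3a (-1.37, limma adjusted p = 0.7732, exact permutation p = 0.03636) and Grik3 (-2.30, limma adjusted p = 0.8826, exact permutation p = 0.1333) did not meet the rule, and their HC values overlapped those of the CX.

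Potassium channel genes gave 7 lower and 0 higher of 66 tested (median -0.26), 10.6% called against 1.28% over all tested genes. The count was 4 to 8 without any 1 library. Kcnj10, the inward rectifier through which astrocytes buffer potassium, was by far the most abundant of these genes. Its values were 7653, 11324 and 12008 in the HC and 15428 (lowest), 22808 (median) and 41742 (highest) elsewhere. No HC sample reached the lowest other sample, CX_1, and the difference was -1.22 (SE 0.36, limma adjusted p = 0.6528, exact permutation p = 0.01212). The HC was 1.61 below the OB but only 0.64 below the CX when written as a fall on the log2 scale, and the call was lost without HC_1, HC_2 or HC_3 and against the CX and BS alone. Kcnh5, a voltage-gated channel of the ether-a-go-go family, had values of 7.5, 15.5 and 14.7 against 26, 43.8 and 80.4, with no overlap and a difference of -1.84 (SE 0.42, limma adjusted p = 0.3445, exact permutation p = 0.006061). The delayed rectifier genes Kcnc1 and Kcnc4, the modifier subunit gene Kcng4 and the sodium-activated channel gene Kcnt1 were also lower, with differences of -1.72 for Kcnc1, -1.61 for Kcng4, -1.46 for Kcnt1 and a smaller one for Kcnc4. Of these, Kcng4 was called in all 23 alternative settings, Kcnt1 in 20 and Kcnc1 in 12. The call of Kcnc4 was lost without HC_2 or HC_3, and the losses of Kcnt1 included the fit without HC_2.

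Transporter genes for inhibitory transmitters were among the lower genes. Slc6a11, the astrocyte GABA transporter, had values of 3232, 4786 and 5561 in the HC against 6412, 15833 and 32499 elsewhere. The groups did not overlap, the nearest samples were those of the CX (6412 and 7206), and the difference was -1.69 (SE 0.52, limma adjusted p = 0.6668, exact permutation p = 0.02424). Slc6a9, the glial glycine transporter, had values of 111, 163 and 172, which overlapped the CX (158 and 189) and lay far below the OB and BS, where no sample was under 1213. The call of Slc6a9 was lost without any 1 of the HC libraries, and that of Slc6a11 also without OB_1, OB_2 or BS_2. Gad2, a GABA-synthesising enzyme typical of inhibitory neurons, overlapped the CX in the same way, with 101 in HC_1 and 98 in CX_1, and its call was lost without HC_2 or HC_3. In the GABA list 2 of 12 tested genes were lower (median -0.76), with 0 to 2 when single libraries were left out, and in the glycine and serine list 1 of 18 was lower and 1, Dmgdh, was higher (median -0.28).

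Beside these genes, the 26 inhibitory neuron and neuroblast markers summed to 1267 to 1571 in the HC and to 1319 to 6267 elsewhere, with the OB highest at 5082 to 6267. Of 24 tested, 3 were lower (Calb2, Gad2, Penk) and 20 had a negative difference, and Dlx6 had no reads in the HC. Over all 13875 tested genes 139 were lower and 6663 had a negative difference. Penk, the enkephalin precursor, had values of 9.37, 3.65 and 0.734 in the HC against 22.1, 48.1 and 111, with no overlap (difference -3.45, SE 0.63, limma adjusted p = 0.128, exact permutation p = 0.006061). Elavl4, a neuronal RNA-binding protein, was also lower, at 30, 31.1 and 23.1 against 46.1, 83.1 and 141, while general neuron markers summed to 6889 to 11195 in the HC and 5550 to 12520 elsewhere. Neu4, a sialidase listed as an oligodendrocyte precursor marker, had a single read in the 3 HC samples together and values of 7.11, 16 and 32.1 (lowest, median, highest) in the others. The 10 precursor markers summed to 1109 to 1442 in the HC and 1108 to 3646 elsewhere. Ngfr was the 1 lower gene of 9 olfactory ensheathing cell markers, which summed to 4048 to 10027 in the HC and to 18318 to 24497 in the OB, and 4 of 9 olfactory sensory neuron markers (Omp, S100a5, Stoml3, Gfy) had no reads in the HC. The part of these cell types in the differences was not tested.

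The signalling gene Rgs6 was among the clearest single differences. Rgs6, which speeds the inactivation of G proteins (chr12:82616551-83162061), had values of 19.4, 30.1 and 53.9 in the HC against 85.2, 232 and 336. The HC mean of 34.5 ± 17.7 (SD, n = 3) lay below the OB at 284 ± 48.0 (n = 3), the CX at 212 ± 71.8 (n = 2) and the BS at 146 ± 69.9 (n = 3), and the difference was -2.60 (SE 0.40, limma adjusted p = 0.069, exact permutation p = 0.006061). Fndc5, which encodes the membrane precursor of irisin (chr4:129136870-129144593), had values of 143, 164 and 163 against 416, 773 and 1603. The HC samples were within a narrow range far below the CX, the nearest region at 426 ± 13.9 (SD, n = 2), with a difference of -2.32 (SE 0.37, limma adjusted p = 0.069, exact permutation p = 0.006061).

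Metabolic genes gave a further group. Slc13a3, the sodium-coupled dicarboxylate transporter (chr2:165405295-165473197), had values of 194, 324 and 320 in the HC against 430, 826 and 1799. The OB stood highest at 1677 ± 174 (SD, n = 3), no HC sample reached the lowest other sample, BS_1, and the difference was -1.74 (SE 0.42, limma adjusted p = 0.4065, exact permutation p = 0.01212), a call that was lost without HC_1. Gpd1, the cytosolic glycerol phosphate dehydrogenase, had values of 189, 235 and 215 against 335, 578 and 1961, with the BS highest and a difference of -1.74 (SE 0.45, limma adjusted p = 0.5293, exact permutation p = 0.01212). Of 27 genes for glycerol phosphate, glycolysis and lactate metabolism 4 were lower (Gpd1, Gpd2, Ldhd, Pfkfb3) and 1, the glucose transporter Slc2a12, was higher, with a median of -0.19. Leaving out single libraries brought the lower count to between 1 and 3, and only Gpd1 of the 4 was called in all 23 settings. Acsm5, a mitochondrial acyl-CoA synthetase, rested on 3 HC reads in all, and its lowest value elsewhere was 4.6. Among 29 glutathione and xenobiotic genes 3 were lower (Ahr, Gstt1, Gstt3) and 3 higher (Gpx8, Sult1c1, Sult1c2), with counts of 0 to 4 and 0 to 3 when single libraries were left out.

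Guidance, adhesion and matrix genes were represented by few members. Efna5, an ephrin ligand, had values of 25, 43.8 and 17.2 in the HC against 69.5, 128 and 631, with the OB highest (349 to 631) and no overlap, and its call was lost without HC_3. Srgap1, which acts downstream of Slit and Robo, had 181, 292 and 193 against 368, 628 and 1472, and these groups were also apart. They were the 2 lower genes of 67 tested in the axon guidance list (2.99% against 1.00% over all tested genes), whose median was 0.13. That count was 1 without HC_3 and 4 without CX_1, and against the OB and CX alone 6 genes of the list were lower and 4 higher. Sdk2, a synaptic adhesion molecule, had values of 18.7, 30.1 and 22.4 against 46, 263 and 460 (difference -2.96, SE 0.66, limma adjusted p = 0.3445, exact permutation p = 0.006061), and Cdh22, a cadherin, rested on 11 HC reads in all, with a lowest other value of 11.3. Spon1, a secreted matrix protein, was lower at 264, 376 and 245 against 416, 983 and 2771. It was called in 21 of the 23 other settings, and the losses included the fit without HC_3. Spon1 stood with Ccdc80, Nid1 and P4ha3 as the lower genes of 48 other matrix genes tested, where Thbs4 was the only higher gene and single libraries moved the lower count from 1 to 7. None of 36 collagens tested was called (median -0.27), with 0 to 2 lower and 0 to 1 higher when single libraries were left out. Of 18 synaptotagmins and complexins, which act in vesicle release, Cplx1 and Syt14 were lower, both with overlapping groups, and the lower count was 0 to 3 when single libraries were left out.

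Hs3st3b1, a heparan sulfate sulfotransferase, had values of 28.1, 21 and 29.4 in the HC and 42.1, 99.4 and 548 elsewhere. The HC samples agreed closely and the OB samples (511 to 548) stood far above all others, with a pooled difference of -2.51 (SE 0.77, limma adjusted p = 0.6731, exact permutation p = 0.01212) that was lost as a call without HC_1, HC_2 or HC_3. In the Notch list 3 of 27 tested genes were lower, the receptor Notch3, its target Heyl and the regulator Dtx4 (median -0.16), and single libraries moved that count from 1 to 3. In the Wnt list 3 of 43 were lower, the receptors Fzd5 and Lgr6 and the ligand Wnt7a, and 1 was higher, the potentiator Rspo2 (median -0.12), and the lower count was 1 to 4 without single libraries. Lgr6, a receptor for R-spondins, had 50, 94.1 and 35.6 against 97, 170 and 377, with a narrow gap between HC_2 and OB_3, and its call was lost without HC_3. Rspo2 had 15.6, 14.6 and 22.4 against 0, 1.26 and 10.7, without overlap, but was called in only 8 of the 23 other settings.

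Further lower genes apart from each region had varied roles. Cit, a kinase of cytokinesis, had values of 41.2, 58.5 and 35.2 against 119, 222 and 531, and Meis1, a homeobox factor, had 14.4, 13.7 and 19.1 against 36.9, 60.9 and 152. The groups overlapped for neither gene, and the differences were -2.45 for Cit (SE 0.50, limma adjusted p = 0.27, exact permutation p = 0.006061) and -2.11 for Meis1 (SE 0.44, limma adjusted p = 0.27, exact permutation p = 0.006061). Taf13, a subunit of the general transcription factor TFIID, differed least of the 26, by -0.82 (SE 0.18, limma adjusted p = 0.304, exact permutation p = 0.006061), with 416, 286 and 372 against 487, 638 and 776. Man1c1, a Golgi mannosidase, Klhl15, an adaptor of a ubiquitin ligase, Sgsm1, a modulator of small G proteins, Tmem117, a membrane protein, and Mkx, a homeobox factor, differed by -3.30 to -1.31. Mkx rested on 2 reads and Tmem117 on 14 reads in the HC samples together. Prokr2, a prokineticin receptor with 16 reads in the HC, was below every other sample (0, 3.65 and 4.4 against a lowest value of 8.79) but was not apart from the CX alone at p under 0.01.

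**Figure D4:**
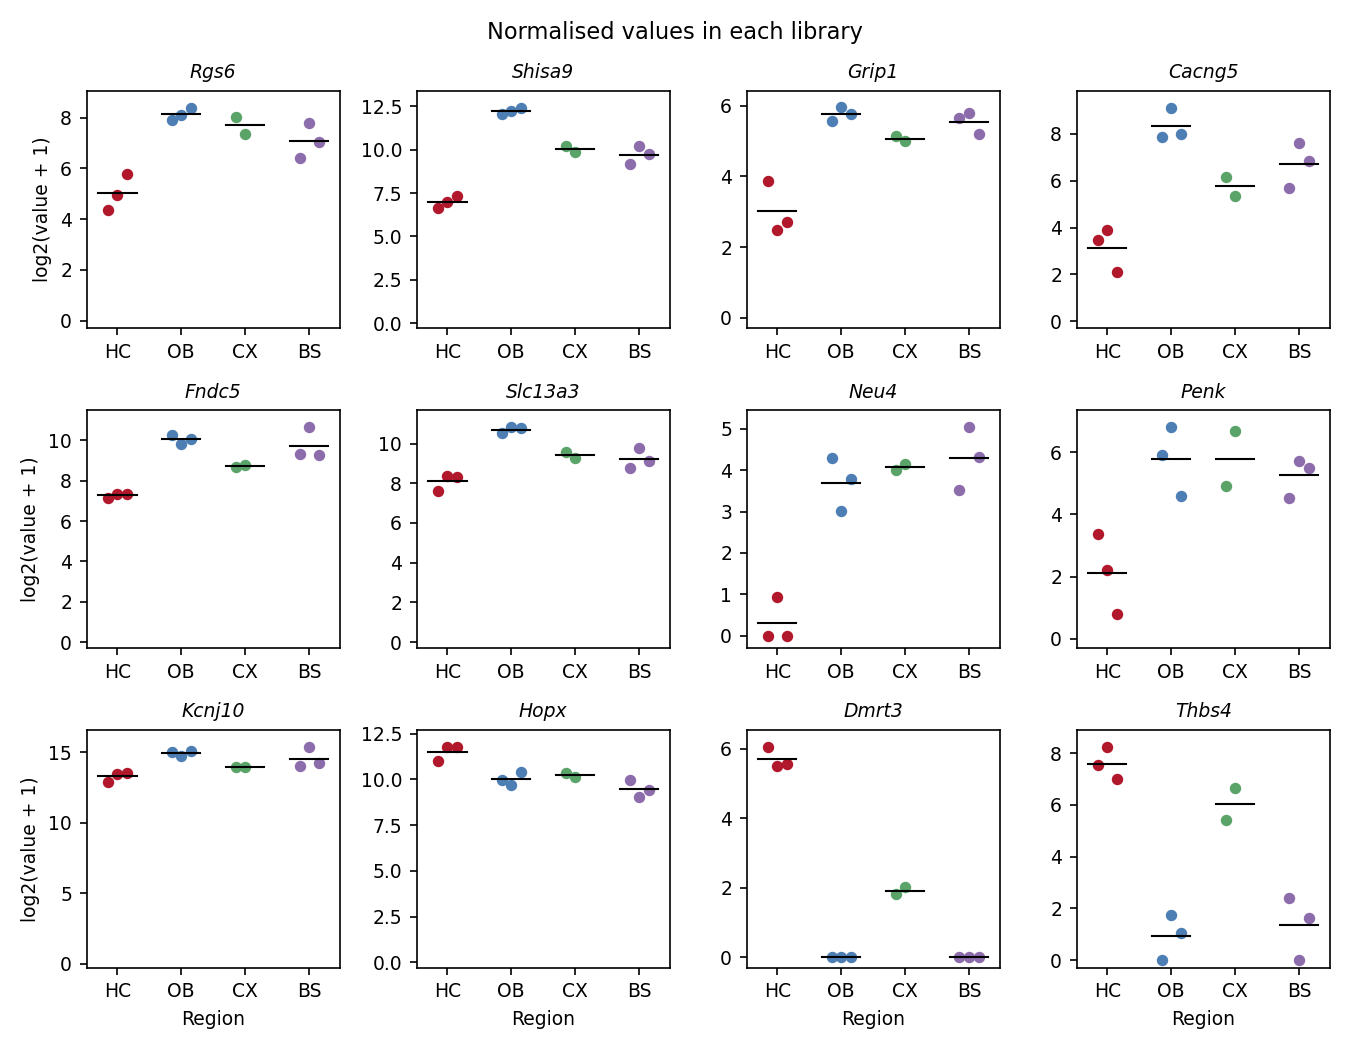
Each panel shows 1 gene, with region on the x axis, log2(value + 1) on the y axis, a point for each library and a bar at the mean of the region. In the first 9 panels every HC point (red) lies below all others, in Hopx, Dmrt3 and Thbs4 every HC point lies above, and the CX mean is nearest to the HC for Grip1, Cacng5, Fndc5, Kcnj10, Hopx, Dmrt3 and Thbs4.

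Not every low value belonged with these genes. Lars2, the mitochondrial leucyl-tRNA synthetase gene, was called lower with 2719, 1138 and 2143 in the HC, but the OB samples had 2278 to 4139 and overlapped the HC, while the CX and BS had 41073 to 57422. The Lars2 values thus split the libraries in the same way as Rn45s, and the part of ribosomal RNA in this call was not tested. The non-coding RNA 1110015O18Rik was the only lower gene with no reads in any HC sample, and it also reached 0 in another sample.

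Of the 4 higher genes apart from each region, 3 encode homeodomain or DM-domain proteins. Dmrt3, a DM-domain factor expressed in the cortical and hippocampal primordium (chr19:25610246-25623921), had values of 65.6, 44.8 and 46.6 in the HC, was at 2.51 and 3.07 in the CX and had no reads in any OB or BS sample. No other sample came near the HC, and the difference was 5.24 (SE 0.73, limma adjusted p = 0.069, exact permutation p = 0.006061). Hopx, an atypical homeodomain protein found in radial glia-like stem cells and astrocytes (chr5:77086986-77115123), was by far more abundant, with 2086, 3475 and 3481 in the HC against 533, 1007 and 1333. The HC mean of 3014 ± 804 (SD, n = 3) compared with 1216 ± 135 in the CX (n = 2), 1059 ± 257 in the OB (n = 3) and 741 ± 234 in the BS (n = 3), and the difference was 1.64 (SE 0.27, limma adjusted p = 0.09694, exact permutation p = 0.006061). Lhx9, a LIM homeobox factor, measured 15, 12.8 and 9.17 in the HC and was at 0 in 6 of 8 other samples, with 4.34 as the highest. E330013P04Rik had 63.1, 84 and 123 against 0, 3.5 and 23, with the CX next to the HC.

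In the list of forebrain and hippocampal patterning factors 5 of 28 tested genes were higher (Dmrt3, Eya4, Hopx, Lhx9, Neurod6), 1 was lower (Meis1), and the median was 1.57. The higher count lay between 3 and 9 when single libraries were left out. Ventral and hindbrain patterning factors gave the opposite sign, with 1 lower gene (Foxp2) of 27 tested, none higher, 25 negative differences and a median of -1.58, and 6 were called lower against the OB and BS alone. Foxp2 had 9.37, 3.65 and 5.14 in the HC against 10, 43 and 111, and its call was lost without HC_2 or HC_3. Nkx2-2, a ventral homeobox factor, lay below all other samples at 16.9, 18.3 and 13.9 against 22.6, 37.1 and 64.6, but did not meet the rule (difference -1.13, SE 0.41, limma adjusted p = 0.7865, exact permutation p = 0.01818). Eya4, a transcriptional coactivator, had 89.3, 140 and 133 and overlapped the CX, where CX_2 had 95.1, and it was called in 11 of the 23 other settings.

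**Figure D5:**
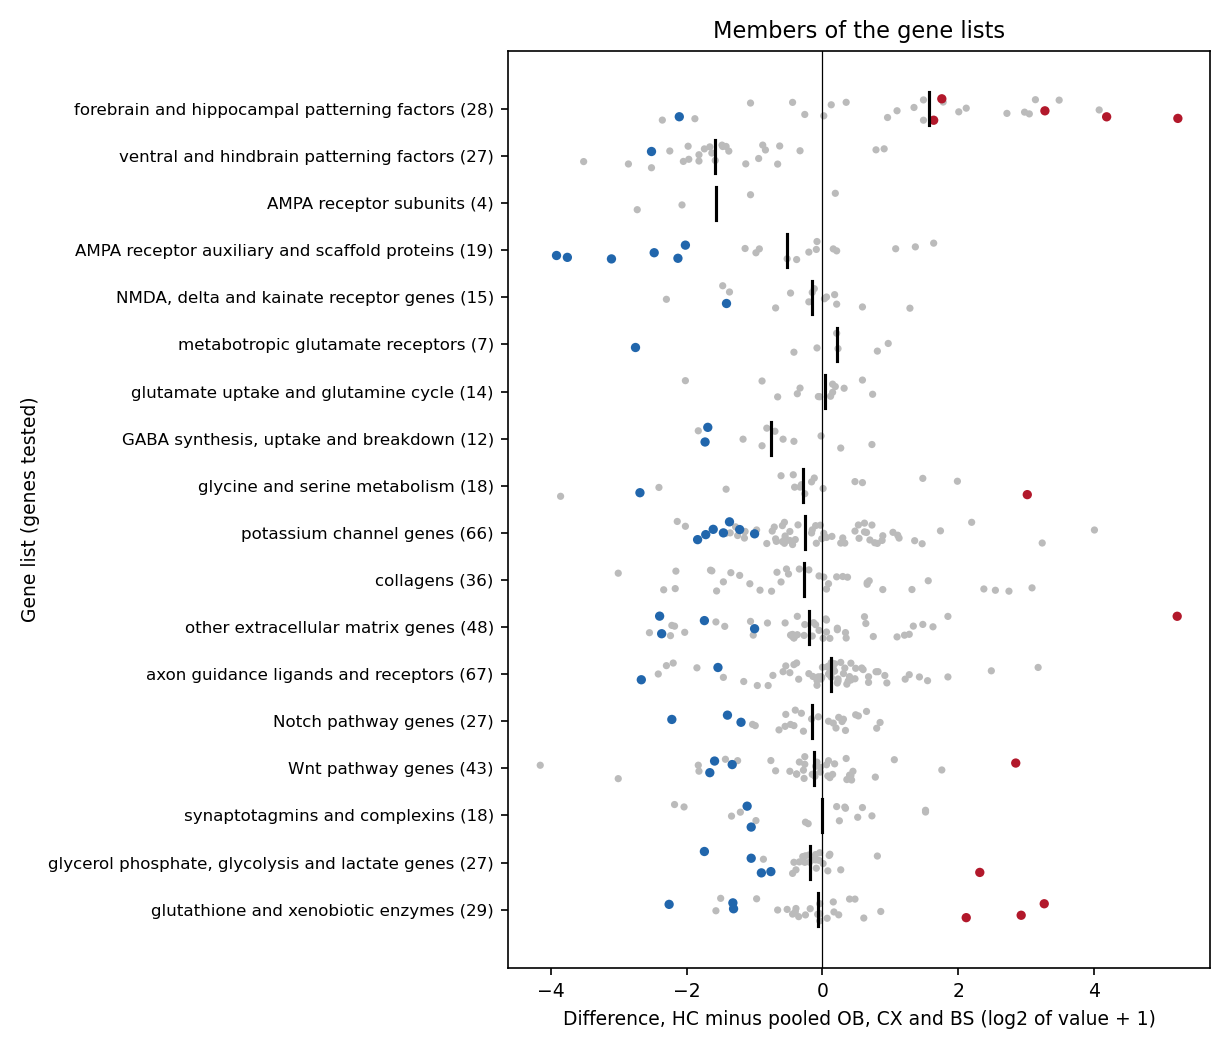
Points are the tested members of the 18 gene lists, placed by the difference between the HC and the pooled other regions (log2 of value + 1), with lower genes in blue, higher genes in red, genes not called in grey and the list's median as a black bar. Patterning factors of the forebrain centre at 1.57 and those of ventral and hindbrain origin at -1.58, and the 6 lower AMPA receptor auxiliary genes lie to the left of the rest of their list.

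Secreted and neuronal genes made up another share of the higher genes. Thbs4, a thrombospondin, had values of 185, 300 and 127 in the HC, was next highest in CX_1 (41.5) and CX_2 (99.7) and did not exceed 4.21 in the OB and BS. Every HC sample exceeded CX_2, and the difference was 5.23 (SE 1.26, limma adjusted p = 0.4065, exact permutation p = 0.006061). DESeq2 did not call Thbs4 on the recovered reads. Neurod6, a factor of excitatory forebrain neurons, had 63.1, 75.8 and 29.7 against 0, 2.37 and 16.9, and Fibcd1, a membrane receptor expressed in hippocampal pyramidal neurons, had 21.9, 27.4 and 13.6 against 0, 1.89 and 7.54. These 2 genes did not overlap, whereas Nptx1, a neuronal pentraxin, and C1ql2, a synaptic C1q-like protein of dentate granule neurons, did. Neurod6 was called in all 23 other settings, Fibcd1 in 19, Nptx1 in 15 and C1ql2 in 7. The calls of Fibcd1 were lost without HC_1 or HC_2 among others. Those of Nptx1 were lost without OB_1, OB_3, HC_1, HC_2, BS_1 or BS_2 among others.

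Neurod6, Fibcd1, Nptx1 and C1ql2 were 4 of the 12 tested markers of hippocampal excitatory neurons, whose median difference was 1.81. The 13 markers summed to 6653, 6154 and 3459 in the HC samples, while the CX had 5411 and 6492, and sums elsewhere ran from 1324 to 1922 in the OB and from 534 to 831 in the BS. HC_3 was the lowest HC sample in this sum, in Neurod6, Fibcd1, Nptx1, C1ql2 and Thbs4, and also in Lhx9 and Tmem200a. This order was described after the values were seen and was not particular to these genes. HC_3 was also lowest in the higher genes Cald1 (1183, 788 and 602) and Grtp1 (80, 58.5 and 38.9), and highest in E330013P04Rik (63.1, 84 and 123). The part of neuronal RNA in the higher genes was not tested.

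Of the remaining higher genes, Rrh, Dmgdh, Sult1c1, Sult1c2, Gpx8 and Slc2a12 shared a pattern among the HC samples, and this group was chosen after the values were seen. Rrh, the retinal pigment protein peropsin, had 54.3, 6.39 and 43.3 in the HC, and the glucose transporter gene Slc2a12 had 491, 159 and 431. Dmgdh, a mitochondrial enzyme of choline breakdown, had 21.9, 4.57 and 9.54. They were called in 11 (Slc2a12) to 19 (Rrh and Dmgdh) of the 23 other settings. HC_2 was the lowest HC sample in all 6 genes. It also had the lowest summed choroid plexus markers of the HC (109789 against 227743 in HC_1 and 208726 in HC_3). The order among the HC samples was not particular to these 6 genes. HC_2 was also lowest in the higher genes Hspa2 (397, 383 and 559) and Ap1s2 (597, 494 and 674), and highest in Adamts9 (95.6, 123 and 86.2). In the BS, choroid plexus markers summed to 380130 in BS_1, 79944 in BS_2 and 188184 in BS_3. Rrh was at 5.26 to 6.31 there and Slc2a12 at 178 to 242. Gpx8 was at 155, 40.1 and 69.5 in those BS samples, at 37.9 to 52.1 in the OB and at most 11.3 in the CX. Dmgdh did not exceed 2.1 in the BS. Means over the 8 other samples were 0.157 for Sult1c1 and 1.68 for Sult1c2. None of the 20 choroid plexus markers was itself called, their median difference was 3.16, and the part of choroid plexus RNA was not tested.

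Smaller higher differences concerned genes of broad expression. Tgfb2, a growth factor, had 888, 704 and 930 in the HC against 385, 600 and 661, and Elmsan1, a chromatin-associated protein, had 171, 163 and 160 against 72.6, 92.6 and 106. The groups overlapped for neither gene, and the differences were 0.62 (limma adjusted p = 0.6731, exact permutation p = 0.01212) and 0.86 (limma adjusted p = 0.3404, exact permutation p = 0.006061). Tmem200a, a membrane protein, had 28.1, 16.4 and 10.6 against 0, 1.17 and 8.68, a larger difference of 2.92 at low values whose call was lost without HC_1 or HC_2. Elmsan1 was called in all 23 other settings, Tmem200a in 19 and Tgfb2 in 15. Tgfb2 and Elmsan1 were named after their values were seen.

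Of the 139 lower genes 31 were called in all 23 alternative settings with the unadjusted threshold, and of the 39 higher genes 5 were (Dmrt3, E330013P04Rik, Elmsan1, Hopx, Neurod6). Shisa9, Cacng5, Grip1, Syndig1l, Rgs6, Fndc5, Neu4, Penk, Meis1, Cit, Sdk2, Gpd1, Srgap1 and Kcnh5 were among those 31.

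Several further genes chosen by name did not meet the rule. Adgrb1, an adhesion receptor, had 532, 497 and 573 in the HC, overlapped BS_1 (568), and reached 6387 to 8838 in the OB (difference -1.93, limma adjusted p = 0.8638, exact permutation p = 0.06061). Dao, the D-amino acid oxidase, had no reads in any HC or CX sample, at most 7.11 in the OB and 222 to 413 in the BS. Islr, Sp8, Gad1 and Dcx were likewise high in the OB, and their HC samples overlapped samples of other regions. Reln overlapped the CX and BS_1, and Lepr was 182 to 320 in the HC, 70.1 to 416 in the BS and at most 51 elsewhere. Eya1 was higher in the HC at 360, 530 and 598 but overlapped CX_2 (388) and missed the threshold narrowly (limma adjusted p = 0.7308, exact permutation p = 0.03636). Stat4 was too low to be tested, with 8.75, 1.83 and 0 in the HC and at most 1.26 elsewhere.

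Promoter sequence was read for the genes of highest mean value among those that differed from each other region, at most 2 in each direction from the RefSeq table, and windows that overlapped the annotated gene were left out. Shisa9 and Fndc5, 2 lower genes of high mean value, are not shown. The 250 bases upstream of the RefSeq start in GRCm38.p6 are shown 5′ to 3′ on the strand of the gene in lower case, with capitals at matches to the motifs TTGGC (NFI), CACTT (Nkx2-2) and GGGAGGG (MAZ) or their reverse complements. Slc13a3 represents the lower genes (chr2:165473198-165473447, minus strand), and Hopx (chr5:77115124-77115373, minus strand, the first of 2 windows) and E330013P04Rik (chr19:60144425-60144674, plus strand) represent the higher genes.
Slc13a3: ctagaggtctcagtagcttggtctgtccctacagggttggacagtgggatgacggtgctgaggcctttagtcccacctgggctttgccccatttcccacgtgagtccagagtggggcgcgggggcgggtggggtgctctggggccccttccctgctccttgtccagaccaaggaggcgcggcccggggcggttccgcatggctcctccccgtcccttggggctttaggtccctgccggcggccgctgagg
Hopx: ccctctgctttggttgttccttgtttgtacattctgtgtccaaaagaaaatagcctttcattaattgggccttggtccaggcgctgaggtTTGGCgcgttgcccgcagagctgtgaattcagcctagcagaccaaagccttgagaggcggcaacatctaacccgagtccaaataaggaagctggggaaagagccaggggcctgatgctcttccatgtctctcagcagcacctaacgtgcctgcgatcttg
E330013P04Rik: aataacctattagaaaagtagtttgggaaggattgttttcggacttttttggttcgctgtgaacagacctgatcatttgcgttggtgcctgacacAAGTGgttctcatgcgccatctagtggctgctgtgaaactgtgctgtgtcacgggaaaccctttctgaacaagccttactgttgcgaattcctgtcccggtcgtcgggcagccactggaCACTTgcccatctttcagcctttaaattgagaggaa

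None of the 3 motifs lay in the Slc13a3 stretch, the NFI motif matched once in that of Hopx, and the Nkx2-2 motif matched at 2 places in that of E330013P04Rik, once on each strand. Over windows of 300 bases, which were found for 102 of the 139 lower, 32 of the 39 higher and 10507 of the 13875 tested genes, the NFI motif was present in 52.9% of the lower, 50% of the higher and 50% of all genes. The Nkx2-2 motif was present in 34.3%, 46.9% and 42.4%, and the MAZ motif in 41.2%, 37.5% and 28.9%. A match describes letters in the window and not a bound site.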

How the data were processed

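The authors mapped reads with STAR 2.5.0a to mm10, counted them on UCSC gene models and normalized with DESeq2 1.20.0 (submitters' processing notes). The deposited value is a normalized signal, in which counts are divided by 1 size factor for each sample, over 24421 entries. Of non-zero values, 100% were whole multiples of 1 read (tolerance 0.01), so reads were recovered. Because the values were not counts, limma 3.58.1 (R 4.3.3, mean-variance trend, two-sided) was run on log2(value + 1), a scale that understates changes of low genes, after the filterByExpr step of edgeR 4.0.16, with 3 HC against 8 pooled samples. Adjusted p-values follow Benjamini and Hochberg. On the recovered reads edgeR called 188 genes and DESeq2 1.42.0 called 419. Known changes simulated in the HC samples were recovered for most changed genes, none with the wrong sign. The simulation gave the OB, CX and BS a shared mean, so it cannot show how the pooled test behaves where those regions differ. The members, gene lists and tests were chosen with earlier results of these data known. Named were the genes apart from each region, called list members and a fixed set taken from the study and from earlier results of these data. The 10 lower and 10 higher called genes of largest difference were named among those without overlap and with a mean of at least 10. Not every called list member is reported here. Alternatives covered normalization, pseudocounts of 0.25 and 5, the filter, a replicate block, adjusted p-values, 4 regional means, and fits without each region or library. Coordinates and promoter sequences are from RefSeq (GRCm38.p6, the assembly named mm10). Values were handled and exact tests computed in Python 3.11.15 (pandas 2.3.3, numpy 2.4.6), and plots used matplotlib 3.10.9. Motif enrichment tests, immunostaining and ChIP were not analysed here.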

Additional observations from a re-analysis of the deposited data

How the results depend on the processing

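Reported were 139 lower and 39 higher genes and 30 genes apart from each region. DESeq2 called 359 lower and 60 higher genes. With adjusted p under 0.05 there were 0 lower, 0 higher and 12 apart. A mean for each region gave 321 lower and 345 higher. Without the CX there were 251 lower and 141 higher, and without the BS 316 and 426. Leaving out 1 library gave 89 to 193 lower genes, 17 to 107 higher genes and 18 to 38 apart. Without a CX library, the lone CX sample is assumed to vary like the other groups. The cause of these shifts was not tested. The other settings kept all 3 counts within 1.5 times those reported.

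Adding the replicate block gave 111 lower and 38 higher genes and 24 apart. Replicate numbers did not pair the samples, since the correlations of the 15 same-number pairs ran from -0.16 to 0.25 and those of the 30 other pairs from -0.224 to 0.183. On average 9 of 11 samples were closer to their own number, a hint from the data and not the design. No named gene changed direction in any setting. Genes near a read or 2 in the HC are limited by depth, and low values in the BS, where 1 read is worth most, are the coarsest.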
